A study of Mus musculus with 847 samples.

Results

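The mRNAs of 9 genes that store, carry, import, export or sense iron were followed in the ageing mouse brain. The genes were Fth1, Ftl1, Trf, Tfrc, Slc40a1, Slc11a2, Cp, Aco1 and Ireb2, taken as a named list of 9 among the 21076 genes of the count table. The table holds 847 unstranded mRNA-seq libraries from 15 dissected brain regions of 59 C57BL/6JN mice, an inbred strain, with no treatment named in the labels. Females and males were both sampled at 3, 12, 15, 18 and 21 months, with 5 mice of each sex per age except 6 males at 21 months. At 26 months there were 5 males and at 28 months 3 males, so the oldest ages hold no females and cannot be told apart from male sex alone. Each region has 51 to 59 libraries, and 37 mice gave a library in every region. Library totals ran from 481444 to 26756735 counts with a median of 6716032, and 10 libraries held fewer than 1000000. Levels are given as CPM (counts per 1000000 reads), scaled by the trimmed mean of M values.

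Iron enters a cell when transferrin binds its receptor at the surface and is taken into endosomes, from which a divalent metal transporter moves the iron into the cytosol. Iron that is not used at once is stored inside ferritin, a hollow shell built from heavy and light subunits, or leaves through the exporter ferroportin with the help of a copper ferroxidase. When iron is scarce, both iron regulatory proteins bind a stem-loop in the mRNAs of these genes, the iron-responsive element, which blocks translation when it lies in a 5′ UTR and stabilises the mRNA when it lies in a 3′ UTR. In the brain, oligodendrocytes, the cells that make myelin, are rich in iron, ferritin and transferrin.

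The stem-loops found in the members are shown because they are the element through which iron regulatory proteins act on an mRNA. They were searched in GENCODE M21 transcripts as a bulged C, 5 stem bases, the loop CAGTGN with its last base not G, and 5 bases that pair with the stem (G-T pairs allowed), on the transcribed strand only. Of the 9 members, 4 held a match in a UTR. Of all genes, 0.101% with a 5′ UTR and 0.467% with a 3′ UTR did. Loops are in capitals, each sequence runs 5′ to 3′ along the mRNA, and coordinates are GRCm38.
Fth1, 5′ UTR, chr19:9982733-9982760, plus strand: tcctgcttcaaCAGTGCttgaacggaac
Ftl1, 5′ UTR, chr7:45459779-45459806, minus strand: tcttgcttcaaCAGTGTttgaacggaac
Slc40a1, 5′ UTR, chr1:45925465-45925492, minus strand: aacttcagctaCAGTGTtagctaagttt
Tfrc, 3′ UTR site 1, chr16:32631220-32631247, plus strand: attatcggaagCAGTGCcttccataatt
Tfrc, 3′ UTR site 2, chr16:32631599-32631626, plus strand: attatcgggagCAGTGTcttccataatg
Tfrc, 3′ UTR site 3, chr16:32631664-32631691, plus strand: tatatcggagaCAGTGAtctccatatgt
Tfrc, 3′ UTR site 4, chr16:32631711-32631738, plus strand: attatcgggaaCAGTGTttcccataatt
Both ferritin subunits carry 1 site each in the 5′ UTR, the ferroportin mRNA 1 in its 5′ UTR, and the transferrin receptor mRNA 4 in its 3′ UTR. In the UTR windows of Trf, Slc11a2, Cp, Aco1 and Ireb2 these letters were not found, which says nothing of other forms of the element. The counts measure mRNA, so an effect of these sites on translation is outside what the values can show.

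Some libraries stood apart before any comparison. The entorhinal cortex library of mouse 52 (a 21-month female) had 0.980 CPM of Slc17a7, a vesicular glutamate transporter of cortical neurons, where the other libraries of that region held at least 227 CPM, and a summed level of 10 oligodendrocyte markers of 22990 CPM, against a median of 1593 CPM in the others. Of the libraries labelled male, that of subventricular zone from mouse 3 held 116 CPM of Xist, an RNA made from the inactive X chromosome, where the other 484 held at most 14.7 CPM. Of those labelled female, that of posterior hippocampus from mouse 38 held 24.2 CPM of 4 Y-linked genes, where the other 361 held at most 5.01 CPM. These 3 libraries are called doubted, and without them the number of regions in which each member rose or fell with age was the same. The 14 medulla libraries of mice 46 to 59 lay above the other 44 on the first principal component of that region, which held 28.5% of the variance, and they contain every 28-month medulla library and 11 from females. The labels name no batch for them. Between mice neighbouring in number, the correlation of this component was 0.84 in medulla. It was 0.603 in motor cortex, 0.578 in visual cortex and 0.467 in olfactory bulb. In motor cortex 5 of the 14 libraries of mice 46 to 59 lay above all others, and in visual cortex and olfactory bulb 1 did. The part of mouse number in the calls of those regions was not tested. Libraries labelled Choroid Plexus are mixed tissue: at 3 months the choroid epithelium markers (Ttr and 7 others) summed to 1878 to 6712 CPM, beside 5738 to 7365 CPM for 7 neuronal markers and 5453 to 26640 CPM for the oligodendrocyte markers. Outside the cortex, the markers of each labelled region were above their median elsewhere in all libraries. Results that rest on the doubted libraries or on the medulla libraries of mice 46 to 59 are given with and without them.

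Trf and Fth1 differed most between regions among the 9. Fth1, which encodes the ferritin heavy subunit that oxidises iron on its way into the shell, was highest at 7528 ± 1290 CPM in medulla (SD, n = 58) and 7421 ± 954 CPM in pons (SD, n = 51), and lowest at 1264 ± 100 CPM in olfactory bulb (SD, n = 58), a 5.95-fold range. Trf, which encodes the iron carrier transferrin, had the widest range of the 9, from 3597 ± 603 CPM in pons (SD, n = 51) to 238 ± 50.2 CPM in visual cortex (SD, n = 56), 15.1-fold. Both were also high in corpus callosum, the largest white matter tract, at 6216 CPM for Fth1 and 2494 CPM for Trf. The light ferritin subunit Ftl1, which helps the iron core form, did not share this order. It was highest in caudate putamen at 574 ± 76.9 CPM (SD, n = 58) and lowest in thalamus at 309 ± 45.6 CPM (SD, n = 59), a 1.86-fold range. Across the 15 region means the correlation of log2 CPM was 0.873 between Fth1 and Trf and 0.288 between Fth1 and Ftl1. These points share mice and libraries, so the correlations are descriptions.

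The remaining members were expressed far lower per length. Per kilobase of exon the median over region means was 2035 CPM for Fth1, 457 CPM for Trf and 436 CPM for Ftl1, and between 2.79 CPM for Cp and 7.93 CPM for Aco1 for the other 6. Tfrc, the transferrin receptor, was highest in visual cortex (42.3 ± 7.42 CPM, n = 56) and motor cortex (41.8 ± 6.28 CPM, n = 59) and lowest in caudate putamen (16.5 ± 3.68 CPM, n = 58; all SD). Slc40a1, the exporter ferroportin, ranged from 23.8 CPM in olfactory bulb to 13.2 CPM in cerebellum. Slc11a2, the divalent metal transporter, was nearly level, from 34.5 CPM in motor cortex to 27.0 CPM in caudate putamen. Cp, the copper ferroxidase ceruloplasmin, was highest in pons (26.2 ± 10.2 CPM, SD, n = 51) and lowest in motor cortex (12.9 CPM). The sensors ran in opposite directions in medulla and pons, while in cerebellum both were above the other regions, Aco1 by 0.17 and Ireb2 by 0.36 log2. Aco1, which switches between a cytosolic aconitase and iron regulatory protein 1, was highest in medulla at 39.4 CPM, and Ireb2, iron regulatory protein 2, was lowest in pons at 15.9 CPM and next lowest in medulla at 17.4 CPM.

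**Figure D1:**
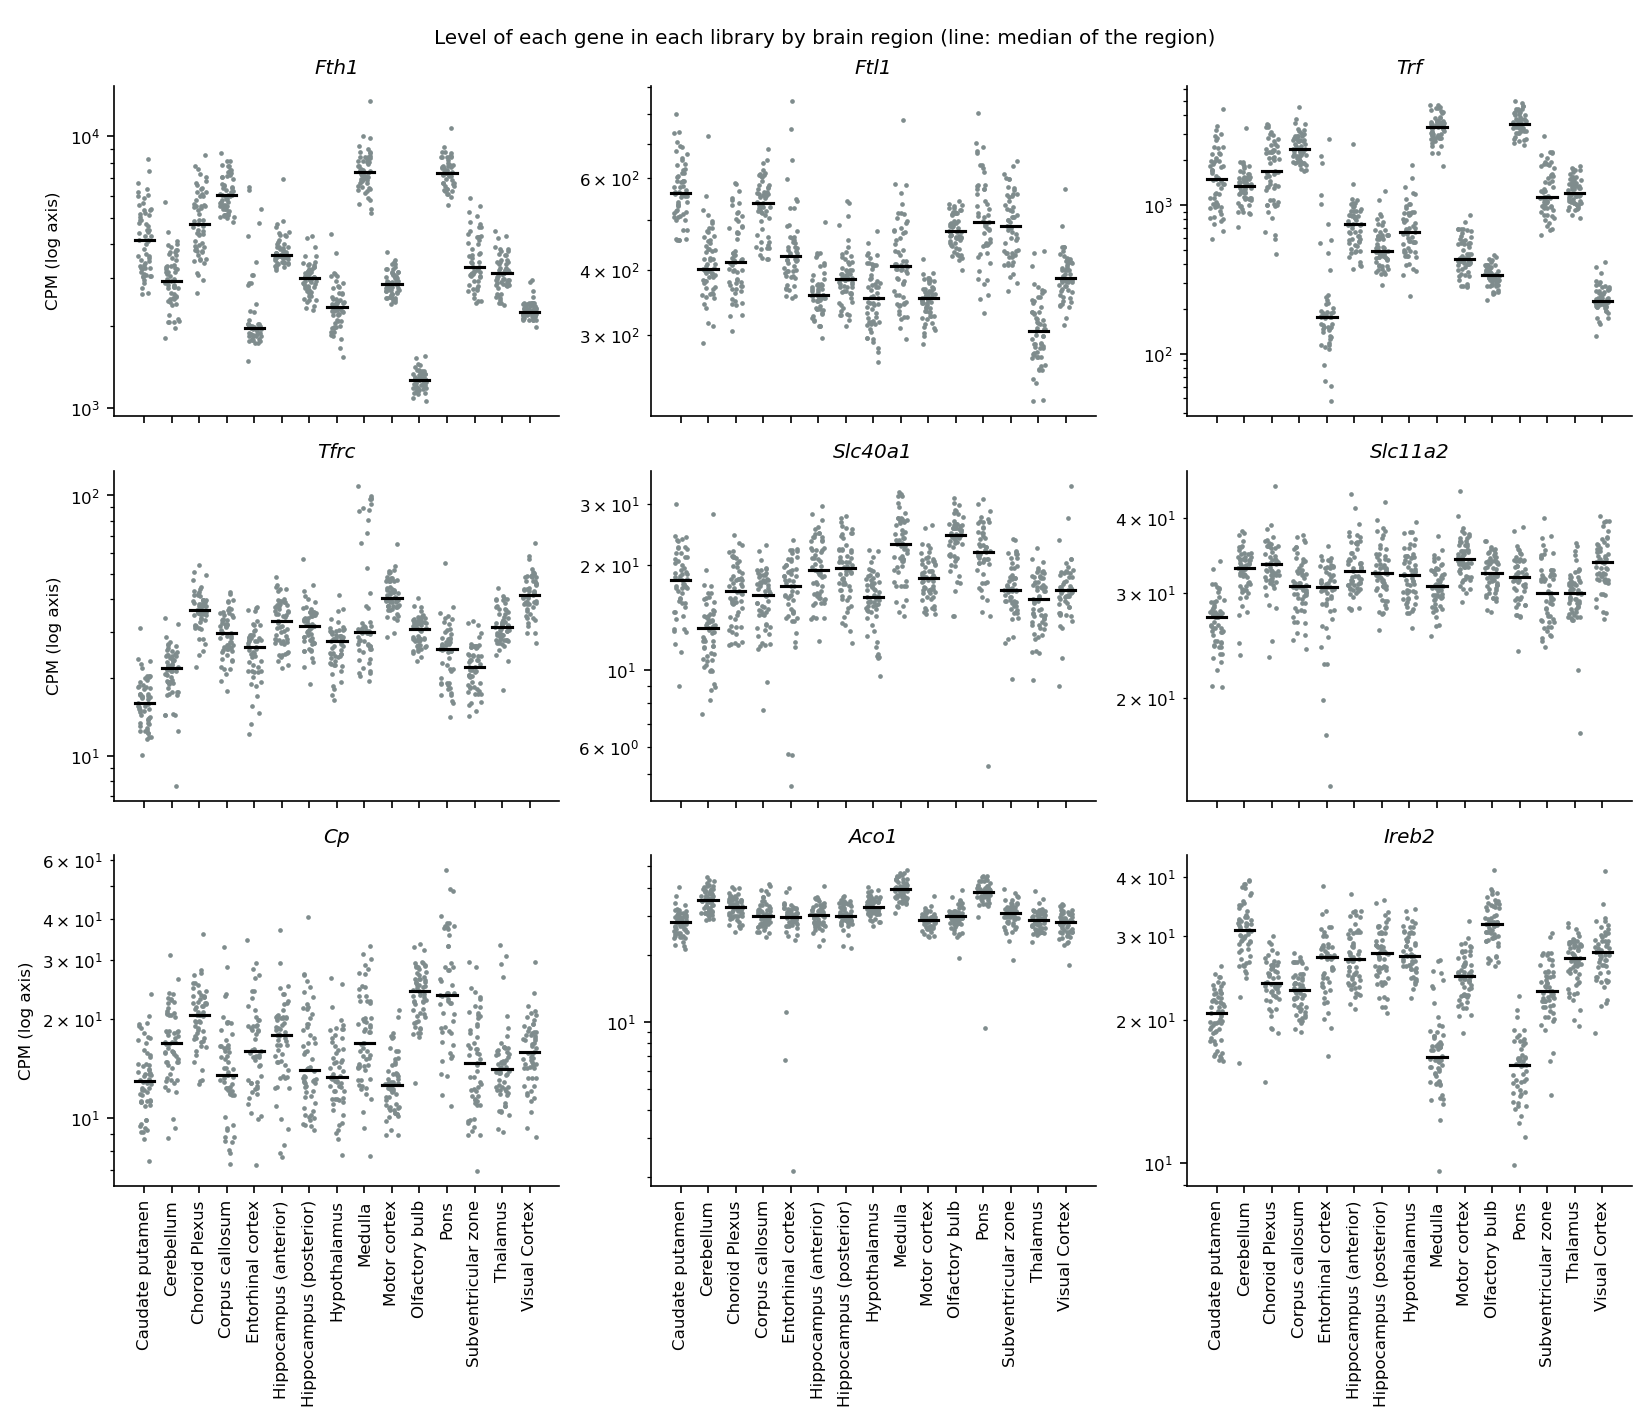
Level of each of the 9 genes in each of the 15 regions, as CPM on a log axis, with a point for each library and a line at the median of the region. Fth1 and Trf are highest in medulla, pons and corpus callosum, and the region means of Slc11a2 lie between 27.0 and 34.5 CPM.

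In these bulk samples, fewer cells of a type and less RNA per cell cannot be told apart. Neighbours in the order of regions mostly lay within 1 SD of each other: all 14 neighbouring pairs for Slc40a1, Slc11a2, Cp and Aco1, 13 for Ftl1 and Tfrc, 12 for Ireb2, 10 for Fth1 and 9 for Trf. When each region was tested against the mean of the other 14 in 1 fit over all libraries (edgeR's quasi-likelihood test), 56 of the 135 gene and region pairs were higher and 56 lower at adjusted p under 0.05. Over all genes 42.0% of such pairs were higher and 42.8% lower, so the members did not stand out by these counts. On the log2 scale Fth1 was 1.18 ± 0.03 (SE) above the other regions in medulla and 1.57 ± 0.04 below them in olfactory bulb, with adjusted p of 1.7e-175 and 1.4e-177. Trf was 2.00 ± 0.06 (SE) above in pons and 2.19 ± 0.09 below in visual cortex, with adjusted p of 4.3e-149 and 1.3e-98. Ireb2 was 0.66 ± 0.03 (SE) below in pons, with adjusted p of 6.1e-97. The Trf and Fth1 levels moved with the oligodendrocyte markers. Within groups of 1 region, age and sex, the correlation over 847 libraries with their summed level was 0.961 for Trf and 0.829 for Fth1, against 0.209 for Ftl1. With 10 microglia markers it was 0.543 for Fth1, 0.502 for Ftl1 and 0.398 for Trf. With the neuronal markers it was -0.514 for Ftl1, -0.100 for Fth1 and -0.0563 for Trf.

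With age the ferritin subunits and transferrin rose, and the genes of uptake, export and sensing changed in few regions. A slope of log2 expression on age was fitted in each region beside sex. Of the 135 gene and region pairs, 29 rose and 3 fell at adjusted p under 0.05 (edgeR's quasi-likelihood test). Over all genes tested 5.87% of pairs rose and 4.71% fell. The 29 were 14 regions for Ftl1, 8 for Trf, 6 for Fth1 and 1 for Cp. The 3 that fell were Aco1 in cerebellum, Slc40a1 in motor cortex and Slc11a2 in olfactory bulb. Tfrc and Ireb2 passed in no region. An unadjusted p under 0.05 was reached by 55 of the 135 pairs, against 23.6% of all pairs. The median slope of all genes tested lay between -0.000598 log2 per month in corpus callosum and 0.000624 in entorhinal cortex. The share of genes that rose or fell differed by region, with 20.2% in Choroid Plexus the highest and 0.0964% in entorhinal cortex the lowest.

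**Figure D2:**
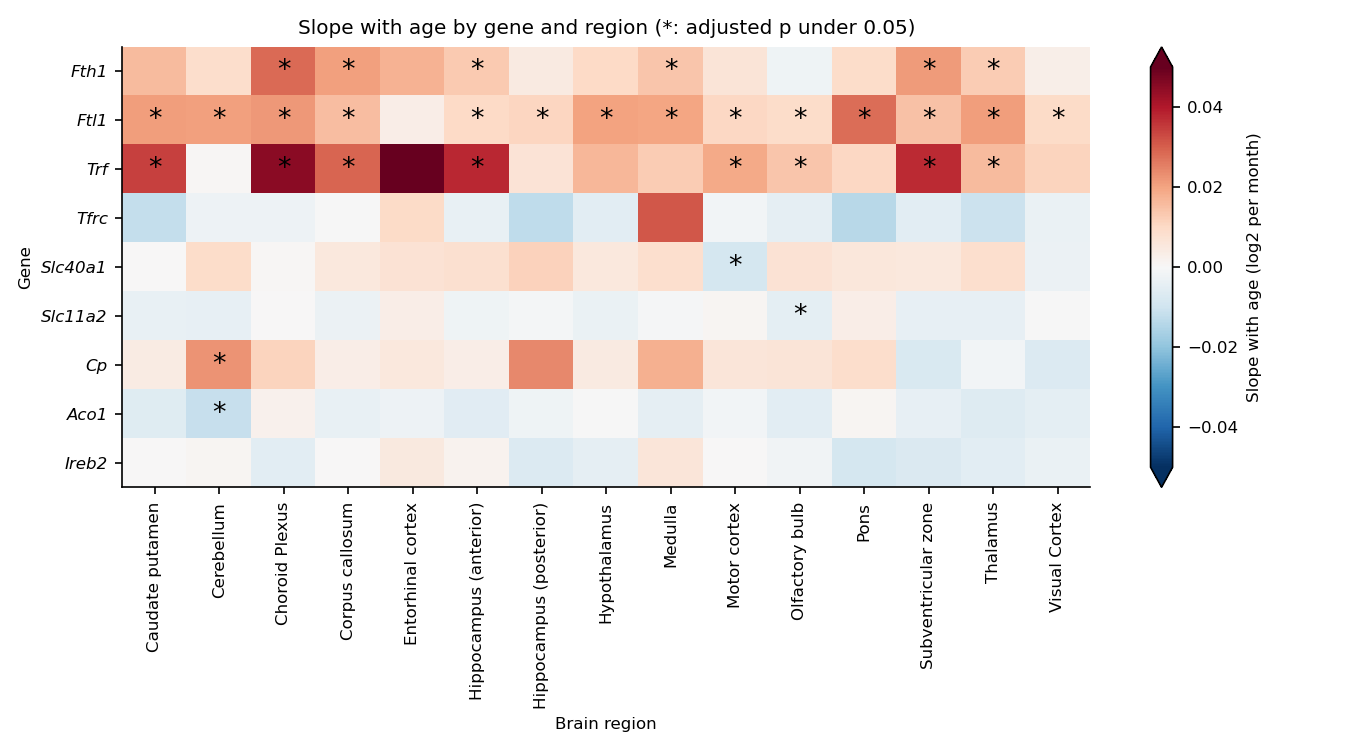
Slope of log2 expression on age, in log2 units per month, for the 9 genes (rows) in the 15 regions (columns), with marks where the slope passed adjusted p under 0.05. Ftl1 is marked in 14 regions, Trf in 8 and Fth1 in 6, all rising.

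Ftl1 rose in every region except entorhinal cortex (12 regions in males alone and 12 in mice numbered 16 to 56). Its slopes past the threshold ran from 0.00908 log2 per month in olfactory bulb to 0.0279 in pons, while the entorhinal slope was 0.00327 with adjusted p = 0.94 (edgeR). In pons the 9 libraries of 3-month mice ran from 331 CPM through a median of 383 to 452 CPM. The 3 libraries of 28-month males held 583, 618 and 672 CPM. All 3, and the 26-month libraries too, lay above every 3-month library, and the pons slope was 0.0279 ± 0.0040 (SE), with edgeR adjusted p = 7.9e-07. In the Choroid Plexus libraries Ftl1 ran from 305 through 350 to 419 CPM at 3 months (n = 10) and was 458, 472 and 507 CPM at 28 months. These groups did not overlap, but the libraries of 26 and 28 months together began at 367 CPM, inside the 3-month range. The slope was 0.0216 ± 0.0033 (SE), with edgeR adjusted p = 1.2e-06. Of the variance of Ftl1 over all libraries, 12.2% went with age and 60.2% with region, against 0.619% and 69.7% for the median gene. A processed copy, Ftl1-ps1, is counted in the table and took a median of 0.731% of the reads of both. It rose in 5 regions itself. Reads of the 2 genes may be split between them, and adding them changed no call on the ferritin ratio given later.

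Fth1 rose in 6 regions (3 in males alone and 4 in mice 16 to 56), and its slopes were above 0 in 14 of 15. They were 0.0281 log2 per month in Choroid Plexus, 0.0214 in subventricular zone, 0.0204 in corpus callosum, 0.0140 in medulla, 0.0133 in anterior hippocampus and 0.0126 in thalamus, with adjusted p from 2.5e-07 to 0.026 (edgeR). In Choroid Plexus the 3-month libraries ran from 3074 through 3760 to 6612 CPM (n = 10), and the 28-month libraries held 4907, 6233 and 6387 CPM. The highest 3-month library exceeded all 3 of the oldest. In subventricular zone the 3-month libraries ran from 2437 through 3102 to 3687 CPM (n = 10) and the oldest held 4242, 4641 and 4815 CPM, without overlap. With the 26-month libraries the old range began at 3256 CPM and overlapped. Olfactory bulb had the one slope below 0, -0.00198 with adjusted p = 0.55.

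Because the heavy and light subunits are counted in the same library, their ratio needs no scaling. The log2 ratio of Fth1 to Ftl1 counts fell with age in 4 of 15 regions and rose in 0 (permutation of ages among mice of 1 sex, 100000 resamples, 2-sided, adjusted over the 15 regions). It changed by -0.0182 per month in pons and -0.0113 in olfactory bulb (adjusted permutation p = 0.0014 for each). In thalamus it changed by -0.00879 (adjusted permutation p = 0.011) and in visual cortex by -0.00694 (adjusted permutation p = 0.038). In pons the log2 ratio was 4.12 ± 0.22 at 3 months (SD, n = 9) and 3.59 ± 0.10 at 28 months (SD, n = 3). In olfactory bulb it was 1.56 ± 0.17 (SD, n = 10) and 1.35 ± 0.10 (SD, n = 3). Light subunit mRNA therefore gained on heavy subunit mRNA in these regions. The visual cortex result was lost when any of 9 mice was left out, with adjusted permutation p up to 0.13. In males alone pons (-0.0140, adjusted permutation p = 0.081) and visual cortex (-0.00745, adjusted permutation p = 0.074) did not pass.

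**Figure D3:**
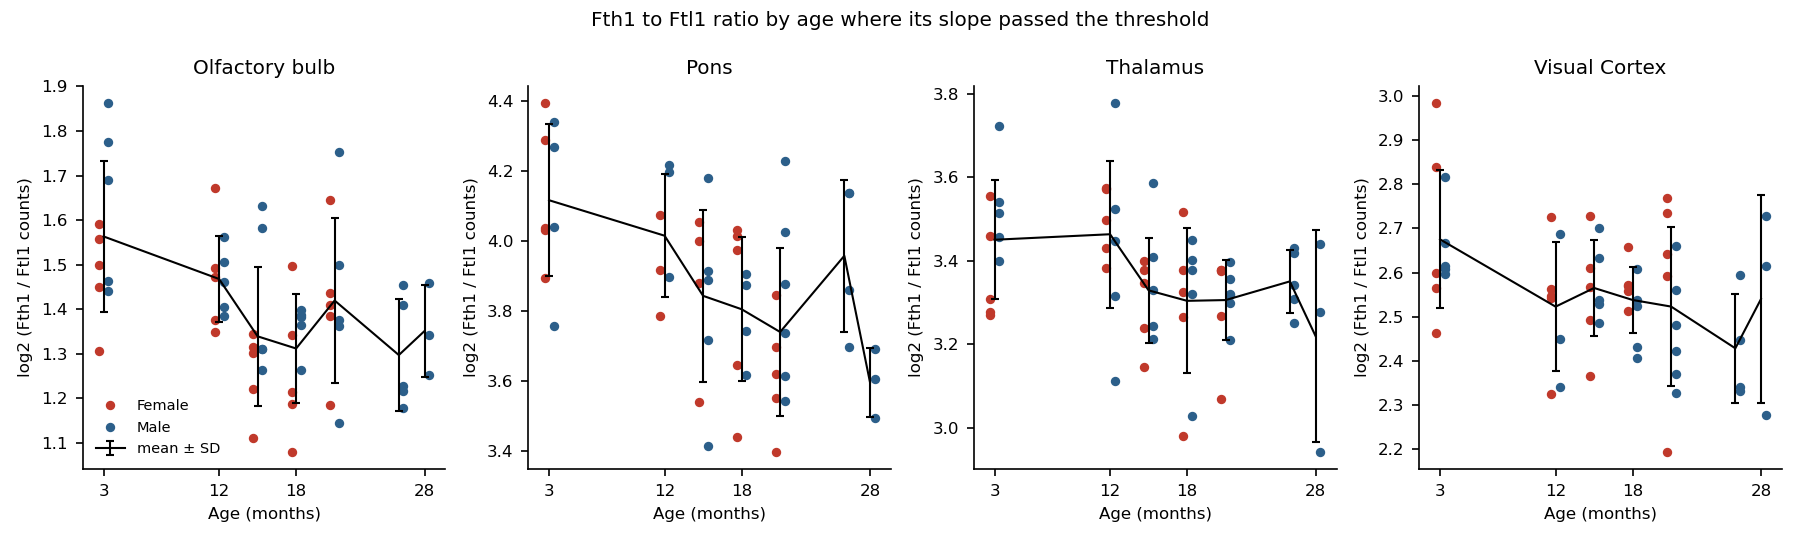
Log2 ratio of Fth1 to Ftl1 counts by age in months in the 4 regions where it fell, with a point for each library coloured by sex and black lines for the mean and 1 SD at each age. In pons the mean falls from 4.12 at 3 months to 3.59 at 28 months.

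Trf rose in 8 regions (5 in males alone and 5 in mice 16 to 56), and its slopes were above 0 in all 15. They were largest in Choroid Plexus (0.0450 log2 per month, adjusted p = 0.0018), anterior hippocampus (0.0377, 0.00049), subventricular zone (0.0372, 0.0030) and caudate putamen (0.0344, 0.023), followed by corpus callosum (0.0290, 2.2e-07), motor cortex (0.0190, 0.030), thalamus (0.0158, 0.049) and olfactory bulb (0.0141, 0.0011; all edgeR). In Choroid Plexus the 3-month libraries ran from 589 through 1149 to 2787 CPM (n = 10), and the 28-month libraries held 2104, 2389 and 2935 CPM. The groups overlapped, since a 3-month library exceeded 2 of the 3 oldest. In anterior hippocampus the 3-month libraries ran from 389 through 628 to 811 CPM (n = 10) and the 28-month libraries held 903, 1018 and 1104 CPM, without overlap. With the 26-month libraries the old range began at 488 CPM and overlapped. Mouse 5, a 26-month male, held 2580 CPM there, beside 4575 CPM of choroid epithelium markers against at most 69.1 CPM in the other 4 mice of that age. The thalamus call was lost when any of 11 of the 14 mice tried was left out, with adjusted p up to 0.077, and the motor cortex call without mouse 37, 57 or 58, with adjusted p of 0.058, 0.051 and 0.058. The entorhinal slope was larger, 0.0848, but its adjusted p was 0.33.

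**Figure D4:**
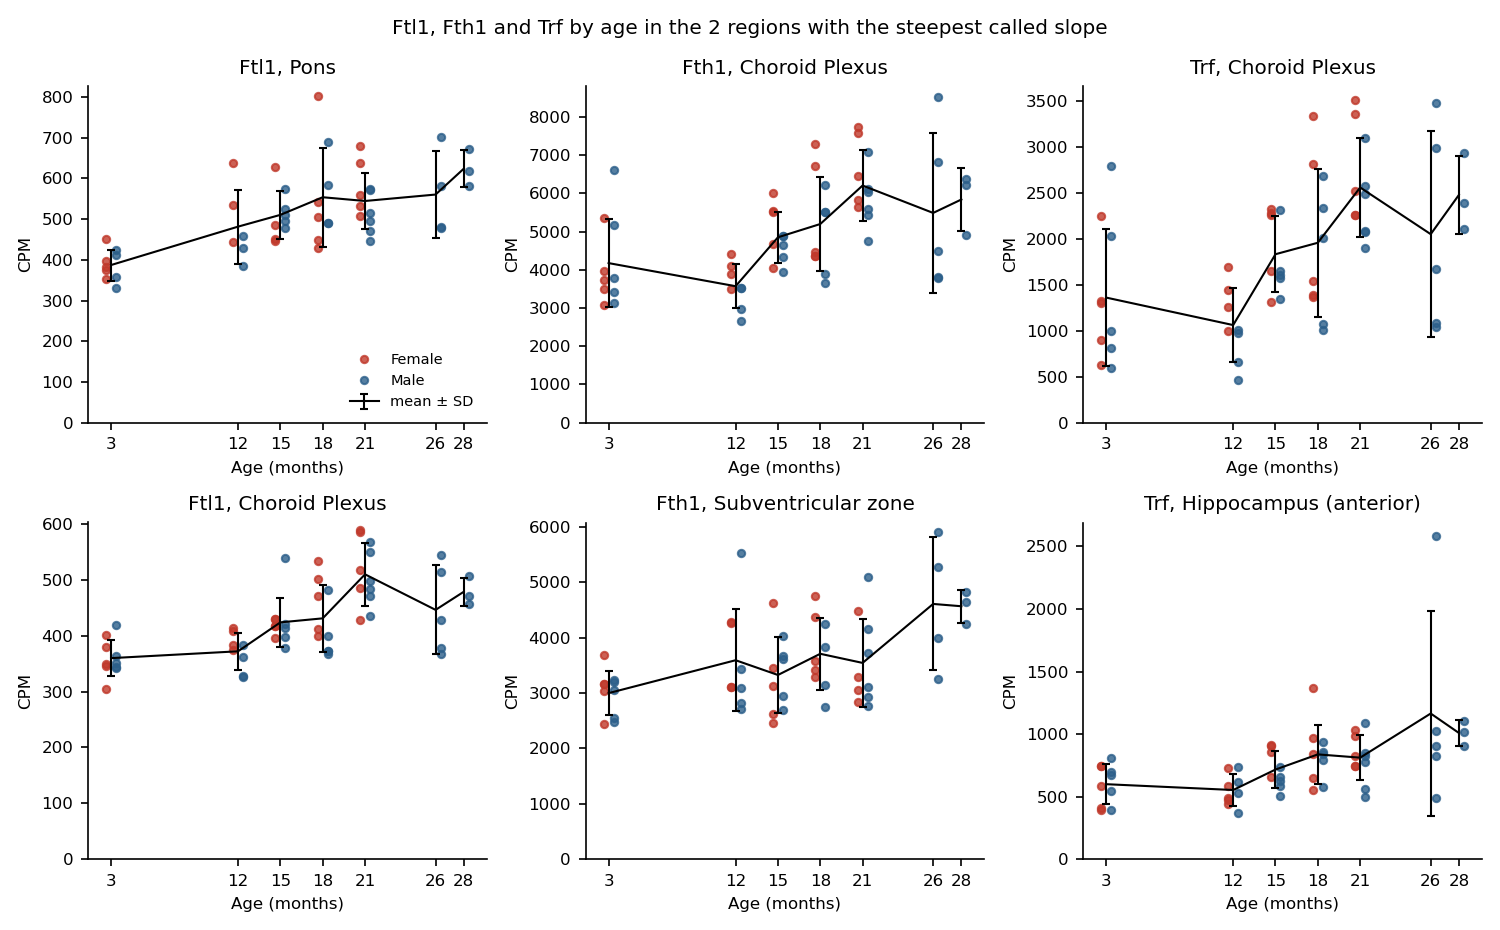
CPM of each library against age in months for Ftl1, Fth1 and Trf, each in the 2 regions with its steepest slope past the threshold, with points coloured by sex and black lines for the mean and 1 SD. Ftl1 in pons rises from a median of 383 CPM at 3 months to 618 CPM at 28 months.

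Markers of other cell types moved with these slopes in some regions and not in others. Of the 10 microglia markers, 9 rose in medulla, 9 in subventricular zone, 9 in cerebellum and 8 in each of pons, corpus callosum, Choroid Plexus, thalamus, hypothalamus and both hippocampal regions, and 7 in caudate putamen. In motor cortex 3 rose and 1 fell, in visual cortex 3 rose and 2 fell, and in olfactory bulb 1 rose, and Ftl1 rose in these regions too. In entorhinal cortex 0 rose. In pons their summed level was 413 to 612 CPM at 3 months and 648 to 982 CPM at 26 and 28 months. Of the oligodendrocyte markers, 5 of 10 rose in Choroid Plexus, 3 in corpus callosum and in anterior hippocampus, and 1 in medulla and in olfactory bulb. In pons, medulla and cerebellum 2 fell, and in olfactory bulb 1 fell. Of 8 astrocyte markers, 6 rose and 0 fell in corpus callosum. In motor and visual cortex 0 of them rose and 2 fell, and in olfactory bulb 1 rose and 2 fell. Of 8 endothelium markers, 3 rose and 0 fell in Choroid Plexus and in posterior hippocampus. These shares are to be read against the 5.87% and 4.71% of all pairs. No gene of these lists had a median of 0 in any region. With the mean log2 CPM of the oligodendrocyte markers as a covariate, Ftl1 rose in 14 regions, Trf in 14 and Fth1 in 10. With the microglia markers as a covariate, Ftl1 rose in 5 regions and fell in 1, Trf rose in 2 and fell in 2, and Fth1 rose in 0 and fell in 3. The shares of all genes called with these covariates are not given here, so these counts do not set the members apart from other genes. The Trf slope in Choroid Plexus went from 0.0450 to 0.0180 with the first and to -0.0212 with the second (adjusted p = 0.21). The part of any of these cell types in the rises was not tested.

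Among the genes of uptake, export and sensing the changes were few. Cp rose in cerebellum at 0.0223 ± 0.0051 log2 per month (SE, edgeR adjusted p = 0.0010), from 12.0, 14.8 and 22.5 CPM (lowest, median and highest at 3 months, n = 10) to 20.2, 20.6 and 22.3 CPM at 28 months. The 28-month values lay inside the 3-month range. Aco1 fell in cerebellum at -0.0116 ± 0.0023 per month (SE, edgeR adjusted p = 0.00022), from 34.7, 38.6 and 43.2 CPM (lowest, median, highest, n = 10) to 31.2, 32.1 and 33.7 CPM, without overlap. With the 26-month libraries the old range reached 39.6 CPM and overlapped. In total 9.45% of genes rose and 7.52% fell in cerebellum.

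Slc40a1 fell in motor cortex at -0.00866 ± 0.0031 per month (SE, edgeR adjusted p = 0.042), from 17.1, 19.9 and 26.0 CPM (n = 10) to 17.0, 17.3 and 20.2 CPM. The oldest libraries overlapped the youngest, and the call was lost without mouse 37 (adjusted p = 0.067) or mouse 40 (0.053). In 13 other regions its slopes were above 0 and none passed. Without a filter on low counts Slc40a1 fell in 0 regions, and in males alone it fell in 0 and rose in 1. With RLE scaling factors, with DESeq2 and in mice 16 to 56 it fell in 1 region. Slc11a2 fell in olfactory bulb at -0.00499 ± 0.0018 per month (SE, edgeR adjusted p = 0.049), from 29.8, 33.5 and 36.7 CPM (n = 10) to 29.5, 31.7 and 34.3 CPM. These ranges overlapped, and the call was lost when any of 10 of the 14 mice tried was left out, with adjusted p up to 0.088. Slc11a2 fell in 0 regions with RLE scaling factors, with DESeq2, without a filter, in males alone and in mice 16 to 56. Tfrc slopes were below 0 in 13 regions, from -0.0140 in pons, and above 0 in entorhinal cortex and medulla, with adjusted p of at least 0.064. Ireb2 slopes lay between -0.00888 in pons and 0.00617 in medulla.

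The comparisons of each later age with 3 months, which share the 3-month libraries, showed when the levels moved. Over 810 tests the members were higher in 74 and lower in 15, against 2.01% higher and 1.41% lower over all genes (edgeR). Ftl1 was higher in 1 region at 12 months (subventricular zone), 5 at 15, 10 at 18, 11 at 21, 12 at 26 and 7 at 28 months, where the group is 3 males at most. The shares of all genes that were higher at these ages were 0.678%, 0.657%, 1.54%, 3.53%, 2.38% and 3.30%. Its largest step was 0.74 log2 in pons at 28 months. Trf was higher in 1 region at 12 and at 18 months, 5 at 21, 4 at 26 and 3 at 28 months, and corpus callosum passed at every age from 18 months on, ending at 0.94 log2. Fth1 passed there at the same ages, ending at 0.58 log2, and in 4 regions at 21 and at 26 months. At 15 months Fth1 was lower in 1 region. Tfrc was lower in motor cortex at 12 and 15 months (-0.31 and -0.37 log2), in cerebellum at 12 months (-0.42) and in corpus callosum at 15 months (-0.42). Aco1 was lower in olfactory bulb at 12, 18 and 21 months, by -0.18 to -0.19 log2, and in cerebellum at 18, 21 and 28 months.

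Taking the mouse as the unit, 1 value per mouse was formed from its mean deviation over regions. Ftl1 rose by 0.0154 ± 0.0007 log2 per month (SE, n = 59), Trf by 0.0231 ± 0.0025, Fth1 by 0.0119 ± 0.0013 and Cp by 0.0088 ± 0.0033, with limma adjusted p of 1.4e-25, 3.6e-11, 8.5e-11 and 0.021. Aco1 fell, at -0.0037 ± 0.0012 (limma adjusted p = 0.011). Over all genes 23.0% rose and 27.6% fell at this level. Tfrc, Slc40a1, Slc11a2 and Ireb2 did not pass, with slopes between -0.0024 and 0.0051. Without the medulla libraries of mice 46 to 59 Ireb2 fell at -0.0022 (limma adjusted p = 0.036). In mice with all 15 regions neither Cp (0.0100, limma adjusted p = 0.077) nor Aco1 (-0.0036, adjusted p = 0.092) passed. In males alone Cp had a slope of 0.0041 (adjusted p = 0.48) and Slc40a1 one of 0.0111 (adjusted p = 0.0052). In the mice numbered 16 to 56, which hold neither 12, 26 nor 28 months, Cp had 0.0063 (adjusted p = 0.21). There Tfrc fell at -0.0090 (adjusted p = 0.0057) and Ireb2 at -0.0032 (adjusted p = 0.011; all limma).

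A test of each regional slope against the mean of the other 14 asked whether ageing differed by region. Of 135 pairs, 4 were higher and 1 lower (edgeR, joint fit), against 1.02% and 0.979% of all pairs. Ftl1 rose faster in pons, by 0.0128 ± 0.0033 log2 per month (SE, adjusted p = 0.021), and more slowly in entorhinal cortex, at -0.0135 ± 0.0034 (adjusted p = 0.0058). Fth1 rose faster in Choroid Plexus, by 0.0173 ± 0.0049 (adjusted p = 0.018), with the oligodendrocyte markers there also rising. With limma voom and the mouse as a replicate block these 3 differences were 0.0126, -0.0140 and 0.0186, with adjusted p of 0.024, 0.0073 and 0.0083. Without a filter on low counts the pons difference was 0.0119 (edgeR adjusted p = 0.063). In mice 16 to 56 it was 0.0127 (adjusted p = 0.12) and the entorhinal one -0.0053 (adjusted p = 0.61), and in males alone neither they nor the Choroid Plexus difference passed, with adjusted p of 0.28, 0.059 and 0.58.

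The other 2 slope differences involve regions with libraries that stood apart, as the Ftl1 difference in entorhinal cortex does. There the highest Ftl1 libraries were those of mice 39 (845.5 CPM), 15 (748 CPM), 23 (650 CPM) and 7 (600 CPM), against a regional median of 426 CPM. They were 12 or 18 months old, and their part in the Ftl1 difference was not tested. Those of mice 23, 7 and 15 held 2.14, 6.74 and 11.0 CPM of Aco1, against a regional median of 29.56 CPM. Their Slc40a1 was 5.7, 5.7 and 4.6 CPM, against a median of 17.34 CPM. In mouse 39 these genes were at 23.2 and 14.05 CPM. None of these libraries is among the doubted ones, so they stay in the fits without those. Trf in entorhinal cortex was 0.0622 ± 0.0120 per month above the other regions (adjusted p = 5.9e-05). Of the 51 entorhinal libraries the median held 177 CPM of Trf, while mouse 52 held 2771, mouse 20 held 2123, mouse 42 held 1909, mouse 40 held 1158 and mouse 18 held 1016 CPM, all 15 or 21 months old. Their oligodendrocyte markers were high in step, 9119 to 22990 CPM. Without the 3 doubted libraries the difference was 0.0411 (edgeR adjusted p = 0.088), in mice 16 to 56 it was 0.104 (adjusted p = 5.8e-10), in males alone 0.0206 (adjusted p = 0.88), and with voom and the mouse block 0.0258 (adjusted p = 0.25). Tfrc in medulla was 0.0351 ± 0.0054 above (adjusted p = 4.7e-08), and without the medulla libraries of mice 46 to 59 it was 0.0057 (adjusted p = 0.87).

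In medulla, Tfrc ran from 36.9 through a median of 88.7 to 109 CPM in the 14 libraries of mice 46 to 59, and from 19.5 through 28.3 to 42.3 CPM in the other 44. The high libraries included 3-month, 15-month, 18-month and 21-month females as well as the 28-month males. Ireb2 ran from 14.7 through 21.8 to 26.7 CPM in the first set and from 9.64 through 16.4 to 21.7 CPM in the second. The ferritins did not share the split, with medians of 382 and 416 CPM for Ftl1 and 7183 and 7466 CPM for Fth1. The medulla slopes without those mice were 0.00096 for Tfrc, 0.0251 for Ftl1 and 0.0186 for Fth1. The 28-month libraries behind the medulla steps of Tfrc, 1.68 log2, and of Slc40a1, 0.60 log2, are all in that set. Within the set Tfrc was 86.9 and 99.2 CPM in the 3-month mice 49 and 53. In the 28-month mice 57, 58 and 59 it was 97.0, 96.6 and 72.0 CPM. These steps therefore compare 28-month libraries of that set with 3-month libraries mostly outside it, and a change with age inside the set was not tested.

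**Figure D5:**
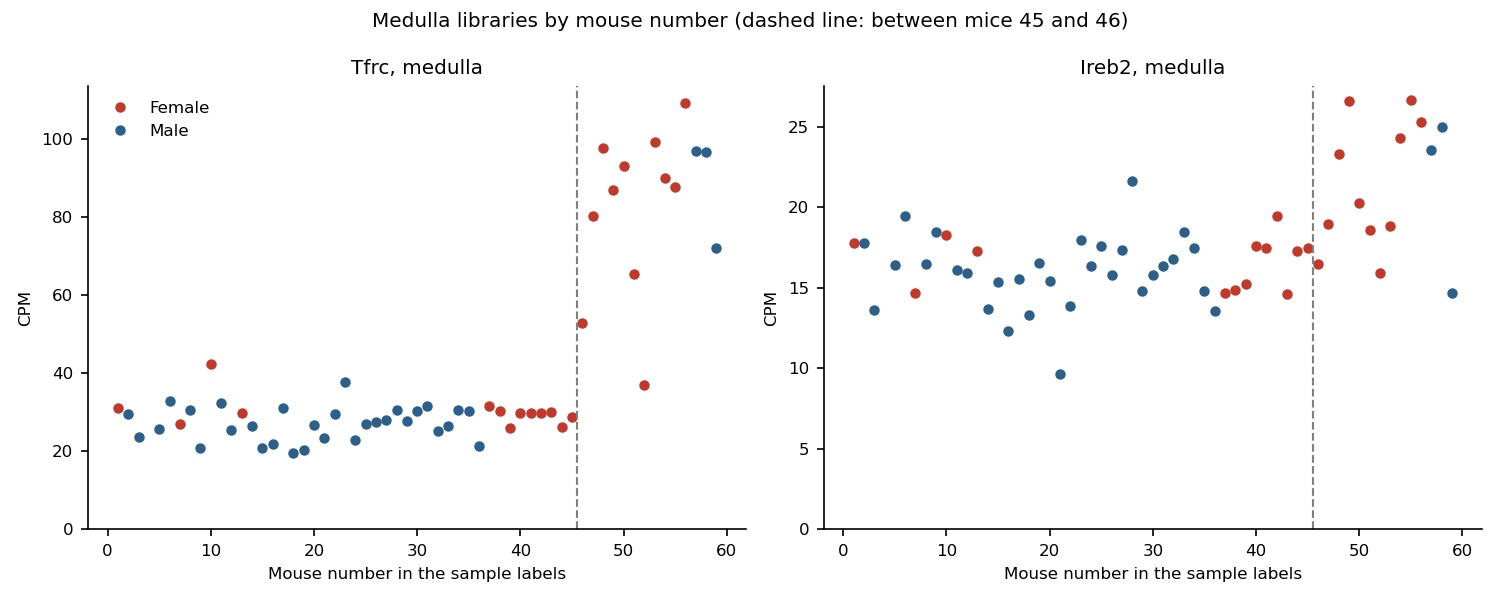
CPM in each medulla library against mouse number, coloured by sex, for Tfrc and Ireb2, with a dashed line between mice 45 and 46. Tfrc in mice 46 to 59 has a median of 88.7 CPM, against 28.3 CPM in the other libraries.

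Between the sexes, at the ages both have, members differed in 6 of 135 pairs, each lower in males, against 1.47% lower and 1.24% higher over all pairs (edgeR's quasi-likelihood test). Slc40a1 gave 3 of the 6. In anterior hippocampus females held 14.1, 22.1 and 29.6 CPM (lowest, median, highest, n = 24) and males 14.0, 17.4 and 26.9 CPM (n = 25), a difference of -0.28 ± 0.06 log2 (SE, edgeR adjusted p = 0.015). In hypothalamus it was -0.23 ± 0.07 (edgeR adjusted p = 0.035) and in motor cortex -0.15 ± 0.05 (adjusted p = 0.044). The distributions overlapped in all 3. Trf was lower in posterior hippocampus, with medians of 609 CPM in females (n = 24) and 445 CPM in males (n = 26), -0.42 ± 0.10 log2 (edgeR adjusted p = 0.020), and without the doubted library there it was -0.40 (adjusted p = 0.030). In mice 16 to 56 it was -0.40 with adjusted p = 0.087. The other 2 were Tfrc and Ireb2 in medulla, -1.01 and -0.26 log2. Without the medulla libraries of mice 46 to 59 they were -0.18 (adjusted p = 0.32) and -0.058 (adjusted p = 0.74).

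Mouse numbers run apart by sex at 3, 15, 18 and 21 months, 16 to 36 for males and 37 to 56 for females, while at 12 months they alternate. Within the 12-month mice alone none of the 6 passed, with 0 calls by edgeR, and Slc40a1 had differences of -0.28, -0.26 and -0.13 log2 in the same 3 regions. In mice 16 to 56 the Slc40a1 differences were -0.28, -0.22 and -0.16 with adjusted p of 0.073, 0.076 and 0.071. Leaving out 1 of 10 mice ended the hypothalamus call for mice 1 and 17 and the motor cortex call for mice 3, 16, 17, 18, 19 and 38, with adjusted p up to 0.060 and 0.069. Per mouse over regions, the sex term was fitted over all 59 mice beside a straight line in age. The males of 26 and 28 months thus enter it with no females of their age. In that fit Slc40a1 (-0.14 ± 0.04 log2, limma adjusted p = 0.014), Trf (-0.13 ± 0.04, 0.023) and Ftl1 (-0.034 ± 0.011, 0.043) were lower in males, where 4.17% of genes were lower and 3.63% higher. In mice with all 15 regions none of the 3 passed, with limma adjusted p of 0.053, 0.062 and 0.19. Without Choroid Plexus Trf and Ftl1 did not pass (0.080 and 0.097). In mice 16 to 56 Ftl1 did not pass (0.31), and Tfrc was lower in males, at -0.12 (0.026). The age slope differed between the sexes in 0 of 135 pairs (edgeR), as against 0.0727% of all pairs, and 16 of the 135 had an unadjusted p under 0.05, against 5.92% of all pairs.

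Other genes of iron metabolism were read from 4 lists. Of the transport and systemic control genes, 17 of 18 were tested in at least 1 region, and 24 of 206 gene and region pairs rose and 7 fell. Of the ferritin turnover and chaperone genes, 0 of 75 pairs rose and 1 fell. Mitochondrial iron and iron-sulfur genes rose in 12 of 195 pairs and fell in 8. Haem synthesis and breakdown genes rose in 23 of 244 and fell in 2. All are to be read against the 5.87% rising and 4.71% falling over all genes.

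Hfe, which binds the transferrin receptor and whose loss causes iron overload, rose in 7 regions, with its steepest slope in hypothalamus at 0.0289 log2 per month (edgeR adjusted p = 0.028). There the youngest 9 libraries averaged 4.47 ± 1.60 CPM and the oldest 2 averaged 9.88 ± 0.13 CPM (SD). Slc25a28, a mitochondrial iron importer, rose in 6 regions, with 32.4 ± 2.57 CPM in the youngest 10 cerebellum libraries and 41.5 ± 2.11 CPM in the oldest 3 (SD). Bmp6, the signal that raises hepcidin in liver, rose in 4 regions. Isca1, an iron-sulfur assembly protein, fell in 3 regions, with 219 ± 16.2 CPM in the youngest 10 medulla libraries and 181 ± 24.5 CPM in the oldest 3 (SD), which are all among mice 46 to 59. Flvcr2 and Slc39a8, a metal importer, fell in 2 regions each, and Flvcr2 rose in 1.

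Over the 15 region means, genes most like each member were sought among 12919 others by the correlation of mean log2 CPM. Genes close to Trf included Prr5l (0.993) and Tmem63a (0.992). Fth1 was closest to Cpox, a haem synthesis enzyme (0.963), followed by Selenof and Rnf125. Ftl1 followed its own copy Ftl1-ps1 (0.970), then Rab7b and Penk. Ireb2 was closest to Chd8 (0.965), Dmxl1 and Nktr, Aco1 to H2-Q7 (0.960), Hscb and Brox, and Cp to Ifitm1 (0.895), Serpinf1 and Srgn. The likeness was weaker for Slc11a2 with Slc7a6 (0.868), Sstr3 and Tbc1d24, Slc40a1 with Acan (0.867), Mmgt2 and Ppifos, and Tfrc with Clip2 (0.835), Usp32 and Necab3. With 15 points from shared mice these are descriptions. Within groups Cp moved most with the macrophage markers (0.585 over 847 libraries).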

How the data were processed

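Raw read counts per gene were deposited by the authors as 1 table of 21076 genes and 847 libraries. Per the labels' protocols, RNA from homogenized tissue was made into cDNA with Smart-Seq2 and into libraries with Nextera XT. The submitters' processing notes list Trim Galore 0.3.7, STAR 2.5.3a, DESeq2 and GRCm38, without saying how each was used. The counter is not given in the sources used here. Counts are unstranded, so reads of overlapping genes such as Cp and Hps3 cannot be told apart, and reads are not independent molecules.

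From the counts, edgeR 4.0.16 (quasi-likelihood test, TMM factors, filterByExpr) was fitted per region over all genes: age in months with sex, each age against 3 months, sex at 3 to 21 months, and age by sex. All libraries together were fitted for region levels and regional slopes. limma 3.58.1 was used on 1 value per mouse, with a prior count of 2. The ferritin ratio was tested by 100000 permutations with a pseudocount of 0.5. Adjusted p-values are Benjamini-Hochberg within each region and contrast over all genes, with a threshold of 0.05. Members and lists were chosen with earlier results of these data known. Named genes were all 9 members, for each the 2 called regions with the largest absolute slope, the 3 most similar genes and the 3 context genes called in most regions in each direction. On simulated counts for corpus callosum (14432 genes), 67.3% of genes changed by 0.02 log2 per month were recovered. Of all calls in that run, which also held 100 genes changed by 0.05, 5.17% were false. Every gene was drawn with the same dispersion and no difference in tissue mix, so genes that scatter more may be recovered less often. Mouse numbers pair libraries across regions, since regions came from the same mouse: the median correlation of deviations was 0.0395 within a mouse and -0.00938 between mice over 12920 genes. Alternatives were RLE factors, DESeq2 1.42.0, no filter, males alone, mice 16 to 56, covariates, a mouse block and leaving out mice or libraries. Gene models and sequences are from GENCODE M21. Every member passed the filter in every region. Some items that these rules would name are not reported here. Replicates are separate mice.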

Additional observations from a re-analysis of the deposited data

Results flagged for a closer look

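A library far from the others of its region and age was found in 4 of 52 groups, and chance alone gives about 1 in 20. Ftl1 in the Choroid Plexus library of mouse 26 at 15 months was 538.9 CPM, against 378 to 430 CPM in the other 9, beside 11620 CPM of choroid epithelium markers against 4030 to 8729 CPM. Trf in anterior hippocampus was 1372 CPM in mouse 51 at 18 months, against 554 to 970 CPM in the others, beside 12090 CPM of oligodendrocyte markers against 4933 to 8644 CPM. It was 2580 CPM there in mouse 5 at 26 months, against 488 to 1023 CPM, beside 17320 CPM of oligodendrocyte markers against 3694 to 8057 CPM. Slc40a1 in motor cortex of mouse 3 at 12 months was 14.43 CPM, against 18.5 to 22.9 CPM, beside 7029 CPM of oligodendrocyte markers against 2831 to 4678 CPM. That library also held 757.1 CPM of choroid epithelium markers, against 1.086 to 3.436 CPM in the others of its region and age. The part of these markers was not tested.

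In 5 cases the age slope of a region differed from the mean of the other 14 by the test of that difference (edgeR). The differences in log2 per month were 0.01729 for Fth1 in Choroid Plexus, 0.01283 for Ftl1 in pons, -0.01352 for Ftl1 in entorhinal cortex, 0.06218 for Trf in entorhinal cortex and 0.0351 for Tfrc in medulla.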

How the results depend on the processing

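Counts of member calls moved by over 1.5 times as follows, given without the shares of all genes in each setting. With microglia markers as a covariate 11 slopes rose and 9 fell, and without a filter 1 fell. Against 3 months, 36 of 405 steps were higher in mice 16 to 56, where fewer ages are tested (74 of 810 over all mice), and 37 of 810 were higher and 3 lower in males alone. Sex calls lower in males numbered 2 in mice 16 to 56 and 0 in 12-month mice. Regional slope differences in males alone were 1 higher and 0 lower, and in mice 16 to 56 0 were lower. Per mouse, falling slopes numbered 0 in mice with all regions, 3 in mice 16 to 56 and 2 without the medulla libraries of mice 46 to 59, and sex calls lower in males 0 in mice with all regions and 1 without Choroid Plexus. The ferritin ratio fell in 2 regions, olfactory bulb and thalamus, in males alone. Leaving out 1 mouse at a time gave 28 to 30 rising and 1 to 4 falling slopes (14 mice), 0 to 1 higher and 4 to 7 lower sex calls (10 mice), 0 to 0 age by sex calls, 4 to 5 rising and 1 to 2 falling slopes and 2 to 3 lower sex calls per mouse (59 mice), and a ratio rising in 0 to 1 and falling in 3 to 5 regions. Of the slopes past the threshold, sign changed only with the microglia covariate: Trf in caudate putamen (-0.02438), Choroid Plexus (-0.02115) and thalamus (-0.02042), Ftl1 in Choroid Plexus (-0.001464), medulla (-0.01649) and subventricular zone (-0.001253), and Fth1 in Choroid Plexus (-0.01339), medulla (-0.02035), subventricular zone (-0.001383) and thalamus (-0.01236). The cause was not tested. With limma voom and the mouse as a replicate block, the region slope of Trf in entorhinal cortex was 0.02581 (adjusted p = 0.2524) and lost its call, as it did with voom and no replicate block (0.02628, adjusted p = 0.2084), and no other named regional call changed. The planned edgeR fit with that block was not run. The doubted and medulla libraries, the block, the 12-month mice and all alternatives of the ratio were chosen after seeing the data.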
